A study of Mus musculus with 24 samples.

Results

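The genes described here are 10 genes of the neuromuscular junction and of the response of muscle to loss of its nerve: the acetylcholine receptor subunits Chrna1, Chrnb1, Chrnd, Chrne and Chrng, the synaptic signalling genes Musk and Dok7, the esterase Ache, and the denervation-responsive genes Ncam1 and Runx1. They were chosen as a named list, with earlier results of these data known. All 10 were found among the 55487 Ensembl gene identifiers counted, of which 55227 matched an entry of GENCODE M21. RNA came from the left tibialis anterior (TA) muscle of 24 male C57BL/6J mice, labelled WT and aged 5 to 7 weeks, with 6 mice in each of 4 groups. Sedentary PBMT mice received photobiomodulation (830 nm light, 25 mW/cm2, 30 J/cm2 over 20 min) on the shaved lower limbs under anesthesia, and their muscle was taken 24 h afterwards. Fatigued PBMT mice received the same light and ran on a treadmill to exhaustion 24 h later, and the muscle was taken after the run. Controls were shaved and anesthetized for 20 min without light, no group received heat alone, and each exercise state was its own sequencing project, so exercise and project cannot be told apart.

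At the neuromuscular junction the motor nerve releases acetylcholine onto a patch of fiber membrane packed with receptors. The nerve also secretes agrin, which binds Lrp4 on the fiber and switches on the receptor tyrosine kinase MuSK, and MuSK with its adaptor Dok7 holds the receptors in place. In an innervated fiber the receptor genes are transcribed mainly in the few nuclei beneath the synapse. In a denervated fiber Musk, Ncam1, Runx1 and most of the receptor genes are switched on along the whole length of the fiber.

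The summed counts of a mouse were 43271093 to 46904076 in sedentary control, 46327516 to 52775844 in sedentary PBMT, 56792327 to 68726155 in fatigued control and 53122528 to 68566029 in fatigued PBMT mice. Levels are given as CPM, the TMM-normalized counts per 1e6 reads counted. A pair of libraries stood apart from their groups. Sedentary control replicate 4 held 3.24% of its counts in mitochondrially encoded genes, against 13.8% to 17.1% in the other 11 sedentary mice and 10.5% to 12.9% in the 12 fatigued mice. Its distance from the mean of its group, as the root mean square over genes in log2 CPM, was 0.501. Fatigued PBMT replicate 5 lay at 0.509, and the other 22 mice lay between 0.304 and 0.407. Fold changes and calls of the 9 genes tested were therefore also computed without each of these mice, and those of the other gene lists were not.

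Compared per kilobase of exon and averaged over the 4 groups, Chrnb1 was the highest of the 10 genes, at 11.6 ± 1.41 CPM per kb (SD, n = 24 mice), above 84.4% of the genes tested over all mice. In RNA of whole muscle, fewer cells of a type and less RNA per cell cannot be told apart, here and below. Ache followed at 6.48 ± 1.14 CPM per kb, then Chrne at 5.00 ± 0.73 and Dok7 at 4.54 ± 1.48 CPM per kb (SD, n = 24 each). Chrna1 stood at 2.80 ± 0.51 and Musk at 1.52 ± 0.95 CPM per kb. Chrne and Dok7 lay within their spread of each other, whereas Chrnb1 lay above Ache, and Ache above Chrne, by more than the SD of either gene. Chrnd, at 0.69 ± 0.18, and Ncam1, at 0.63 ± 0.16 CPM per kb, also lay within their spread of each other. Runx1 was lower, at 0.31 ± 0.25 CPM per kb, and Chrng was close to nothing, at 0.012 ± 0.012 CPM per kb (SD, n = 24). This order is that of the pooled mice and differed between groups. Musk lay within the spread of Chrnd in sedentary control mice (0.69 ± 0.17 against 0.68 ± 0.19 CPM per kb, SD, n = 6). In fatigued PBMT mice Musk lay within the spread of Chrna1 (2.77 ± 0.71 against 2.89 ± 0.46 CPM per kb). In sedentary PBMT mice Ache lay above Chrne by less than the SD of Ache (5.41 ± 0.98 against 4.62 ± 0.65 CPM per kb). Chrne lay above Dok7 in sedentary control mice (5.17 ± 0.66 against 3.63 ± 0.29 CPM per kb, SD, n = 6) and within its spread in fatigued control mice (4.93 ± 0.80 against 5.52 ± 1.63 CPM per kb). Runx1 stood at 0.10 ± 0.03 CPM per kb in sedentary control mice, and in fatigued PBMT mice, at 0.66 ± 0.18, it lay within the spread of Chrnd (0.73 ± 0.20) and Ncam1 (0.74 ± 0.11).

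**Figure D1:**
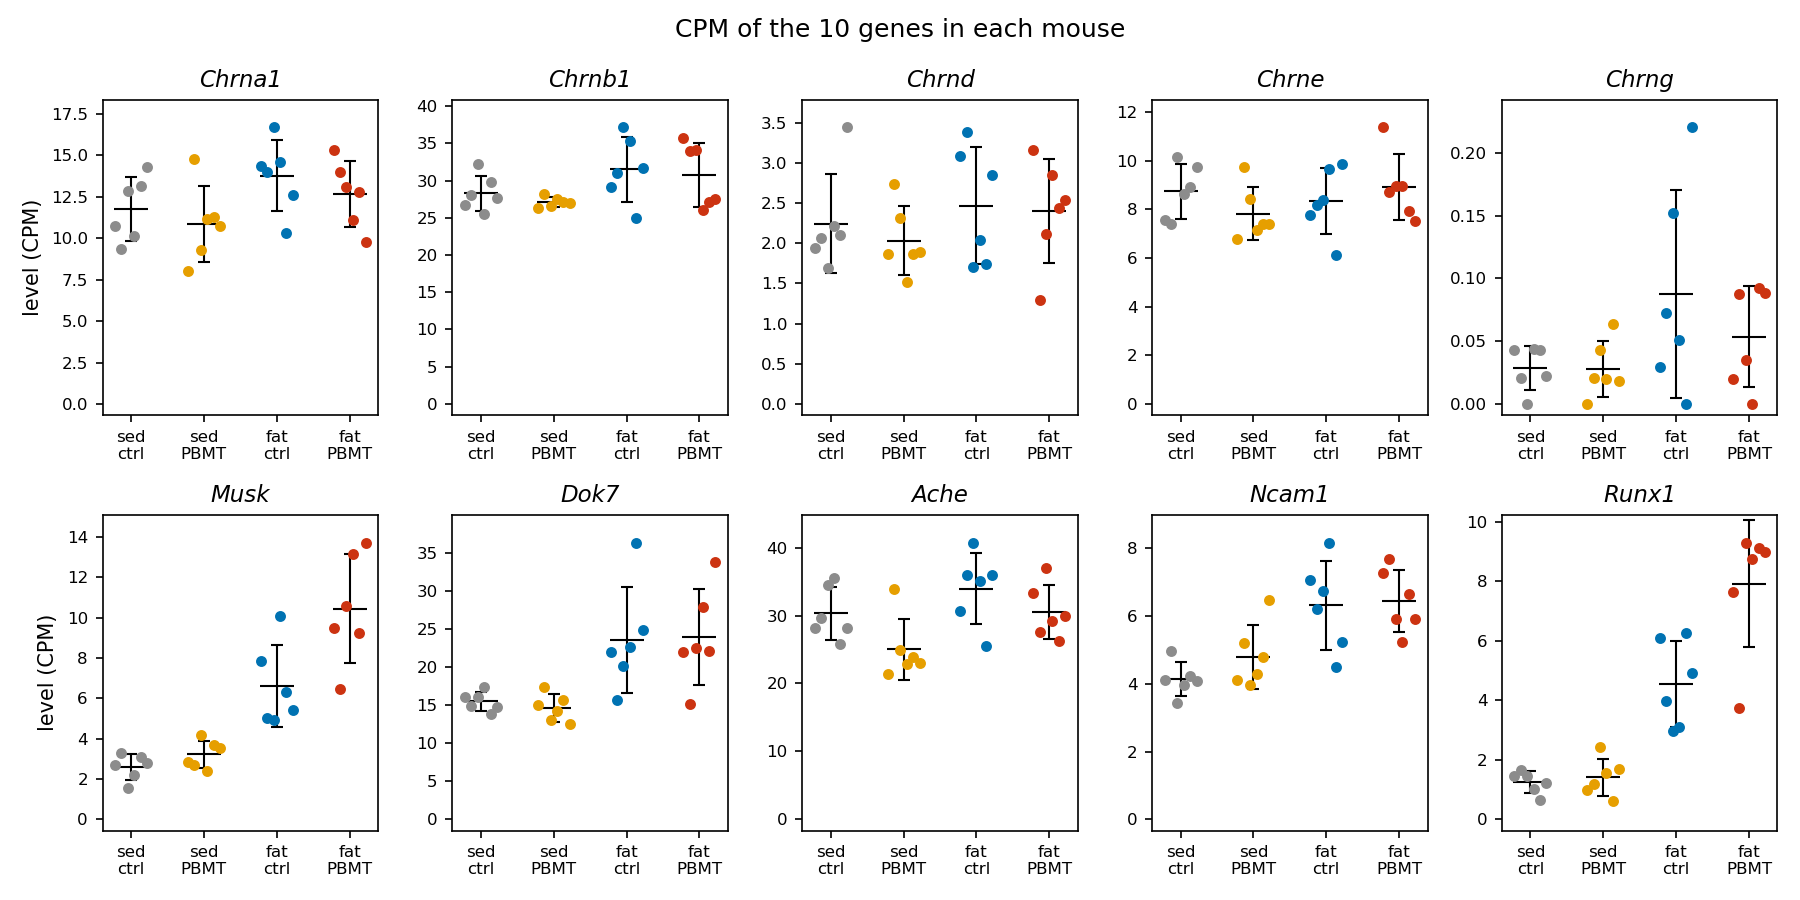
Level of each of the 10 genes in every mouse (vertical axes, CPM) in the 4 groups of 6 mice (sed, sedentary; fat, fatigued; ctrl, control), with bars for the mean ± SD. The points of Musk and Runx1 are higher in every fatigued mouse than in every sedentary mouse, whereas the receptor subunits overlap between all groups.

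The receptor of adult muscle is built from the subunits of Chrna1, Chrnb1, Chrnd and Chrne, and these 4 genes passed the filter on low counts in every comparison. Chrna1, which encodes the subunit that binds acetylcholine, averaged 11.8 ± 1.95 CPM in sedentary control, 10.9 ± 2.29 in sedentary PBMT, 13.8 ± 2.14 in fatigued control and 12.7 ± 2.00 in fatigued PBMT mice (SD, n = 6 each). The ranges of all 4 groups overlapped, from a lowest value of 8.01 CPM in a sedentary PBMT mouse to a highest of 16.7 CPM in a fatigued control mouse. Chrnb1, whose subunit is needed for clustering, lay between 25.5 and 32.2 CPM in sedentary control, 26.4 and 28.2 in sedentary PBMT, 24.95 and 37.2 in fatigued control and 26.1 and 35.7 in fatigued PBMT mice. Chrnd, a structural subunit that takes part in the second binding site, lay between 1.30 and 3.44 CPM over all mice, with group means of 2.24, 2.03, 2.47 and 2.40 CPM in the same order of groups. Chrne, the subunit of the adult receptor, had group means of 8.73, 7.81, 8.33 and 8.91 CPM in that order.

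With PBMT, the log2 fold changes of the 4 subunits in sedentary muscle were -0.11 for Chrna1 (standard error 0.14), -0.06 for Chrnb1 (0.066), -0.14 for Chrnd (0.19) and -0.15 for Chrne (0.11). None was called, as their edgeR adjusted p ran from 0.703 for Chrne to 0.844 for Chrnd. In fatigued muscle the values were -0.12 (standard error 0.12), -0.04 (0.11), -0.04 (0.23) and 0.10 (0.12), each with an edgeR adjusted p of 1.00 after rounding. The 95% interval for Chrna1 ran from -0.40 to 0.18 in sedentary and from -0.38 to 0.14 in fatigued muscle. Fatigued against sedentary muscle, the subunits were not called either. In control mice the log2 fold changes were 0.23 for Chrna1, 0.16 for Chrnb1, 0.14 for Chrnd and -0.07 for Chrne, with edgeR adjusted p of 0.255, 0.230, 0.697 and 0.726. In PBMT mice they were 0.22, 0.18, 0.24 and 0.19, with edgeR adjusted p of 0.242, 0.136, 0.431 and 0.248.

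Chrng encodes the subunit of the fetal receptor, which Chrne replaces after birth and which returns in denervated muscle. It stayed below the filter in every comparison. Its counts per mouse ran from 0 to 2 in sedentary control (median 1.5), from 0 to 3 in sedentary PBMT (median 1), from 0 to 13 in fatigued control (median 3.5) and from 0 to 6 in fatigued PBMT mice (median 3.5). In each group 1 mouse had 0 counts, which allows up to 3 counts, or 0.0489 to 0.065 CPM in these 4 mice, for counting error only. Summed over the mice of a group, Chrng had 8, 8, 32 and 20 counts in the same order of groups, and no fold change is given at this depth. For PBMT against control, the two-sided exact permutation test gave p = 0.833 in sedentary and p = 0.535 in fatigued muscle (n = 6 and 6). At counts this low the test could hardly find a difference, so no conclusion is drawn from it. Over all 24 mice, Chrng had 68 counts and Chrne 10942. Per kilobase of exon (4.16 kb for Chrng and 1.69 kb for Chrne), Chrne lay 422-fold above Chrng, a ratio that rests on those 68 counts and on the exon lengths.

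Musk, the kinase through which agrin acts, ranged from 1.54 to 3.32 CPM in sedentary control mice (median 2.73) and from 2.42 to 4.16 CPM in sedentary PBMT mice (median 3.19). In fatigued muscle it ranged from 4.95 to 10.1 CPM in control mice (median 5.88) and from 6.46 to 13.7 CPM in PBMT mice (median 10.0). Every fatigued mouse lay above every sedentary mouse, and in both exercise states 3 of 6 PBMT mice lay above all of their controls while the other 3 overlapped them. Fatigued against sedentary, Musk rose 2.54-fold in control mice (log2 fold change 1.34, standard error 0.21, edgeR adjusted p = 6.22e-05) and 3.24-fold in PBMT mice (log2 fold change 1.70, standard error 0.20, edgeR adjusted p = 1.33e-06). With PBMT in fatigued muscle, its log2 fold change was 0.66 (standard error 0.21, 95% interval 0.21 to 1.11). The unadjusted edgeR p was 0.00719, but after adjustment over 14574 genes it was 1.00 after rounding. The paper reports longer runs after PBMT, and no run time per mouse is given in the labels, so light and amount of running cannot be told apart in this comparison for Musk or any other gene. All 6 PBMT mice lay above the median of their controls (two-sided exact p = 0.0216 by permutation, unadjusted, n = 6 and 6). In sedentary muscle Musk stood at 0.31 in log2 (SE 0.19, edgeR adjusted p = 0.677). Fatigued minus sedentary, the PBMT effect on Musk differed by 0.35 in log2 (standard error 0.28; interaction test in edgeR, adjusted p = 0.946).

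Dok7, the cytoplasmic adaptor that MuSK needs for its activity, ranged from 13.8 to 17.3 CPM in sedentary control mice (median 15.5) and from 12.5 to 17.4 CPM in sedentary PBMT mice (median 14.6). It ranged from 15.7 to 36.3 CPM in fatigued control mice (median 22.3) and from 15.2 to 33.8 CPM in fatigued PBMT mice (median 22.3). In each fatigued group 5 of 6 mice lay above every sedentary mouse of the same treatment, and replicate 2 lay lowest in both, inside the sedentary range. Dok7 rose 1.52-fold in fatigued against sedentary control mice (log2 fold change 0.60, standard error 0.16, edgeR adjusted p = 0.0103) and 1.64-fold in PBMT mice (0.71, standard error 0.16, edgeR adjusted p = 0.00197). With PBMT, Dok7 stood at -0.08 in log2 (SE 0.087, edgeR adjusted p = 0.806) in sedentary and 0.02 (standard error 0.21, edgeR adjusted p = 1.00 after rounding) in fatigued muscle.

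Ache encodes acetylcholinesterase, which clears acetylcholine from the synaptic cleft. It ranged from 25.8 to 35.6 CPM in sedentary control mice (median 28.9) and from 21.4 to 33.9 CPM in sedentary PBMT mice (median 23.5). It ranged from 25.5 to 40.7 CPM in fatigued control mice (median 35.5) and from 26.3 to 37.0 CPM in fatigued PBMT mice (median 29.6). In sedentary muscle 5 of 6 PBMT mice lay below every control, while PBMT replicate 2 stood alone among the controls. The log2 fold change there was -0.27 (standard error 0.11, 95% interval -0.50 to -0.04). The unadjusted edgeR p was 0.0231 and the adjusted p 0.607, so Ache was not called (two-sided exact p = 0.0455 by permutation, unadjusted, n = 6 and 6). In fatigued muscle, Ache stood at -0.15 in log2 with PBMT (SE 0.11, edgeR adjusted p = 1.00 after rounding). Fatigued against sedentary, Ache stood at 0.16 (standard error 0.11, edgeR adjusted p = 0.336) in control mice and 0.29 (standard error 0.11, edgeR adjusted p = 0.0634) in PBMT mice. In the PBMT mice Ache passed the threshold with the replicate number as a block (edgeR adjusted p = 0.0349), with limma voom (0.00685), and without any of fatigued control replicate 5 (0.0455), fatigued PBMT replicate 5 (0.0476) or sedentary PBMT replicate 2 (0.00760), out of a range of 0.00685 to 0.346 over all settings. In the control mice it passed with limma voom alone (adjusted p = 0.0364). Over 98 bases the exons of Ache overlap Gm42456 on the opposite strand, which held at most 12 counts in a mouse against at least 1067 for Ache.

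Ncam1 encodes a cell adhesion molecule that is concentrated at the synapse of innervated fibers and is also made by Schwann cells. It ranged from 3.42 to 4.98 CPM in sedentary control mice (median 4.10) and from 3.95 to 6.46 CPM in sedentary PBMT mice (median 4.53). It ranged from 4.50 to 8.16 CPM in fatigued control mice (median 6.48) and from 5.24 to 7.67 CPM in fatigued PBMT mice (median 6.27). In the control mice 5 of 6 fatigued mice lay above every sedentary mouse, and in the PBMT mice 3 of 6 did. Ncam1 rose 1.53-fold in fatigued against sedentary control mice (log2 fold change 0.61, standard error 0.14, edgeR adjusted p = 0.00317) and 1.34-fold in PBMT mice (0.42, standard error 0.14, edgeR adjusted p = 0.0244). The call in the PBMT mice was lost without any of 5 single mice, with an edgeR adjusted p of 0.0533 without fatigued PBMT replicate 1, 0.0589 without fatigued PBMT replicate 2, 0.0599 without sedentary PBMT replicate 1, 0.0645 without sedentary PBMT replicate 3 and 0.0547 without sedentary PBMT replicate 4. Over all settings it ran from 0.00640 to 0.0645. With PBMT, Ncam1 stood at 0.22 in log2 (SE 0.13, edgeR adjusted p = 0.682) in sedentary and 0.03 (standard error 0.14, edgeR adjusted p = 1.00 after rounding) in fatigued muscle.

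Runx1, a transcription factor gene that denervation induces in muscle and that is also active in blood cells, ranged from 0.64 to 1.66 CPM in sedentary control mice (median 1.35) and from 0.64 to 2.43 CPM in sedentary PBMT mice (median 1.39). In fatigued muscle it ranged from 2.96 to 6.26 CPM in control mice (median 4.45) and from 3.73 to 9.30 CPM in PBMT mice (median 8.88). Every fatigued mouse lay above every sedentary mouse. In fatigued muscle 5 of 6 PBMT mice lay above every control, and PBMT replicate 2 lay below the control median. Fatigued against sedentary, Runx1 rose 3.63-fold in control mice (log2 fold change 1.86, standard error 0.28, edgeR adjusted p = 6.03e-05) and 5.57-fold in PBMT mice (2.48, standard error 0.28, edgeR adjusted p = 6.87e-07). With PBMT in fatigued muscle its log2 fold change was 0.80 (standard error 0.24, 95% interval 0.28 to 1.32). The unadjusted edgeR p was 0.00540 and the adjusted p 1.00 after rounding (two-sided exact p = 0.0260 by permutation, unadjusted, n = 6 and 6). In sedentary muscle Runx1 stood at 0.19 in log2 (SE 0.29, edgeR adjusted p = 0.865). Fatigued minus sedentary, the PBMT effect on Runx1 differed by 0.62 in log2 (standard error 0.39; interaction test in edgeR, adjusted p = 0.946).

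**Figure D2:**
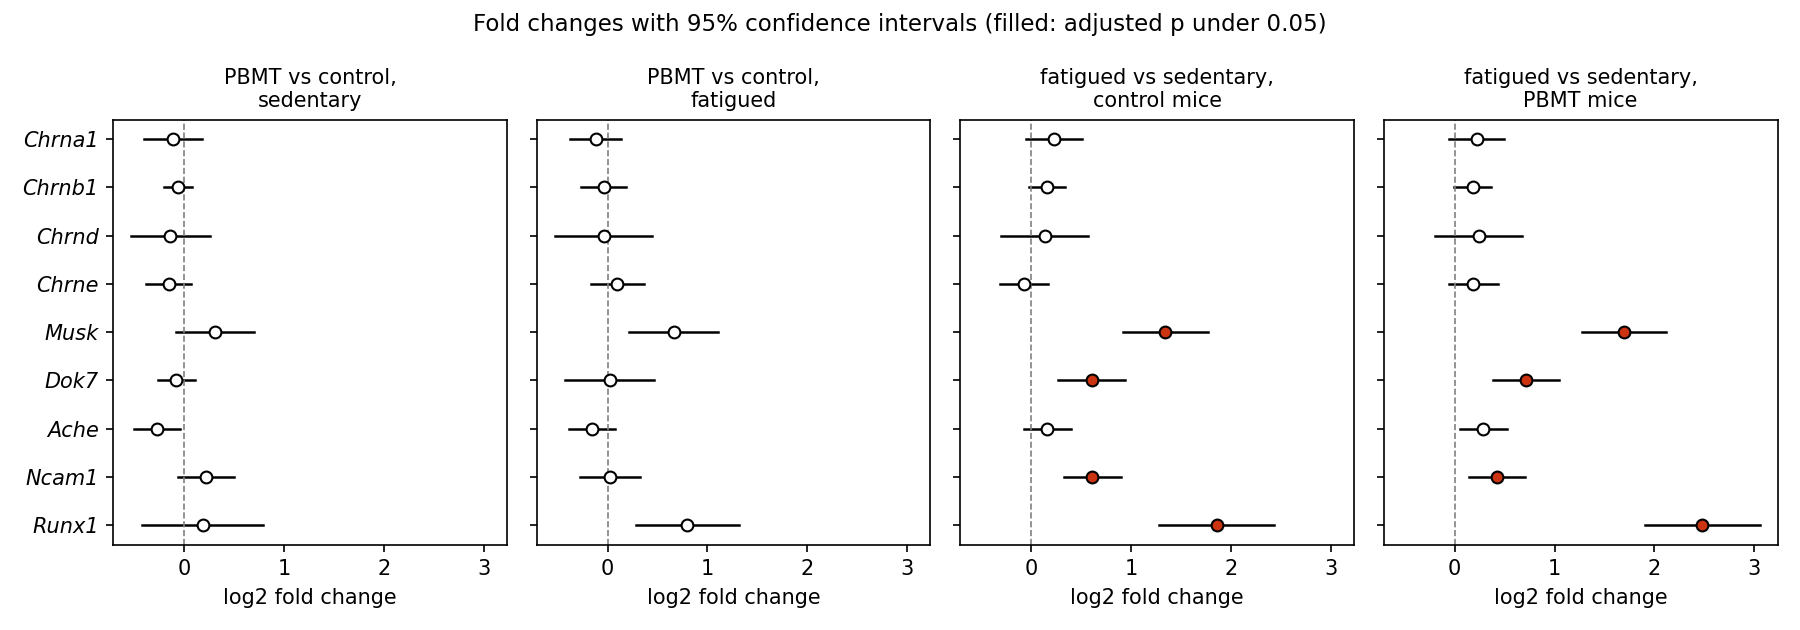
Log2 fold change (horizontal axes) of the 9 genes that passed the filter in 4 comparisons, each with its 95% confidence interval from edgeR; filled points have an adjusted p under 0.05. Musk, Dok7, Ncam1 and Runx1 are filled in both comparisons of fatigued with sedentary muscle, and no point is filled in either comparison of PBMT with control.

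Counted over the list, none of the 9 genes tested was called with PBMT in sedentary muscle, where edgeR called 0.0282% of 14177 genes. At an unadjusted p under 0.05, 1 of the 9, Ache, was lower, against 4.3% of all genes (1082 of 14177 in either direction). As the list was chosen with earlier results of these data known, such shares are a description and no test. In fatigued muscle none of the 9 was called with PBMT, where edgeR called 0% of 14574 genes. At an unadjusted p under 0.05, 2 of the 9 (Musk and Runx1) were higher there, against 1.08% of all genes (230 of 14574 in either direction). DESeq2 and limma voom also called 0 of the 9 in each, and with so few genes called, a gene that was not called cannot be told apart from one that did not change. The median log2 fold change of the 9 genes was -0.08 in sedentary and 0.02 in fatigued muscle, against -0.0019 and 0.0041 over all genes tested. The difference of the PBMT effect between the exercise states was called in 0 of the 9 genes by edgeR, DESeq2 and limma voom alike, where edgeR called 0.00662% of 15108 genes, and 0 of the 9 had an unadjusted edgeR p under 0.05, as had 665 of all genes.

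Fatigued against sedentary, 4 of the 9 genes tested were called, each of them higher, in control mice, where edgeR called 18.6% of 15108 genes in either direction and 9.1% as higher. The same 4 genes, Musk, Dok7, Ncam1 and Runx1, were called higher in PBMT mice, where edgeR called 26.8% of genes in either direction and 14.1% as higher. Musk and Runx1 were the 2 of the 9 in which every fatigued mouse lay above every sedentary mouse of the same treatment, as did 4.08% of all genes tested in control mice and 5.98% in PBMT mice. The median log2 fold change of the 9 was 0.23 in control and 0.29 in PBMT mice, against -0.01 and 0.0021 over all genes. Without sedentary control replicate 4, the log2 fold changes in control mice were 1.30 for Musk, 0.64 for Dok7, 0.60 for Ncam1 and 1.81 for Runx1, and all 4 were called. Without fatigued PBMT replicate 5, those in PBMT mice were 1.73, 0.73, 0.41 and 2.43, and these 4 and Ache were called. With PBMT in fatigued muscle and without that mouse, Musk stood at 0.69 and Runx1 at 0.75 on the log2 scale, and neither was called. Without sedentary control replicate 4, Ache stood at -0.23 with PBMT in sedentary muscle, at an unadjusted edgeR p of 0.0519.

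Of 30 other genes of synapse assembly and maintenance, 29 were tested, and edgeR, DESeq2 and limma voom called none with PBMT in sedentary or fatigued muscle or for the interaction. In sedentary muscle 1 of the 29 was under an unadjusted 0.05 in edgeR, 1 in DESeq2, and 2 higher and 2 lower in limma voom, as were 1082 of 14177 genes in edgeR and 2057 of 14177 in limma voom. Ordered by the edgeR p, the first was Ufsp1, which is encoded near Ache and makes a peptidase, at a log2 fold change of -0.30, followed by Cttn, a cortactin that links to actin, at -0.14, and Macf1, a linker of the cytoskeleton, at 0.17. In fatigued muscle 0 of the 29 had an unadjusted edgeR p under 0.05, as had 230 of 14574 genes, and the smallest were those of Phldb2 (-0.20), Lrp4 (0.14) and the collagen gene Col13a1 (0.59). For the difference they were those of Cttn (0.17), Pdzrn3 (-0.19) and Lrp4 (0.14). The median log2 fold change of the 29 genes was -0.03 in sedentary and -0.02 in fatigued muscle.

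Fatigued against sedentary, 5 of the 29 synapse genes were called higher and 2 lower in control mice, where edgeR called 18.6% of all genes, 9.1% as higher, and the list had a median of -0.04 in log2. Those higher were Erbb2, a neuregulin receptor (0.68, edgeR adjusted p = 0.00107), Utrn, which encodes utrophin (0.37, adjusted p = 0.00295), the synaptic laminin genes Lama5 (0.40, adjusted p = 0.00664) and Lama4 (0.52, adjusted p = 0.0124), and Cttn (0.22, adjusted p = 0.0354). Those lower were Crk, an adaptor recruited by Dok7 (-0.33, edgeR adjusted p = 6.98e-04), and Lrp4, the agrin receptor (-0.39, adjusted p = 0.00113). DESeq2 called the same genes, and limma voom called 7 higher and 4 lower, where it called 4945 of 15108 genes. Lrp4 averaged 9.41 ± 0.69 CPM in sedentary and 7.20 ± 0.64 CPM in fatigued control mice (SD, n = 6 each), and all 6 fatigued mice lay below all 6 sedentary mice. Musk and Lrp4, whose proteins form a single receptor complex for agrin, were thus called in opposite directions in the same mice.

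In PBMT mice 7 of the 29 synapse genes were called higher and 4 lower when fatigued, where edgeR called 26.8% of all genes, 14.1% as higher, and the list had a median of -0.0064 in log2. Of the 7 higher, the 6 with the smallest p were Cttn (0.38, edgeR adjusted p = 3.20e-04), Erbb2 (0.68, adjusted p = 7.63e-04), Lama5 (0.37, adjusted p = 0.00832), Agrn, which encodes agrin (0.39, adjusted p = 0.0194), Lama4 (0.46, adjusted p = 0.0195) and Utrn (0.24, adjusted p = 0.0358). The 4 lower were Crk (-0.31, edgeR adjusted p = 8.34e-04), Gabpa, whose product binds the N-box of synaptic promoters (-0.33, adjusted p = 0.00288), the neuregulin receptor gene Erbb3 (-0.42, adjusted p = 0.0188) and Lrp4 (-0.25, adjusted p = 0.0195). DESeq2 called the same genes, and limma voom called 8 higher and 5 lower, where it called 4937 of 15108 genes. Erbb2 and Erbb3, whose products pair to bind neuregulin, were therefore called in opposite directions.

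Of 22 other genes known to respond to denervation, 20 were tested in sedentary and 22 in fatigued muscle, and edgeR, DESeq2 and limma voom called none with PBMT. In sedentary muscle 0 of the 20 had an unadjusted edgeR p under 0.05, as had 1082 of 14177 genes, and the smallest were those of Ankrd1, a stretch-responsive gene (0.48), the ubiquitin ligase gene Fbxo30 (0.15) and Hdac9 (0.26). In fatigued muscle 2 of the 22 had one, as had 230 of 14574 genes. Hdac4, a deacetylase gene that links denervation to synaptic genes, stood at 0.29 on the log2 scale, and Trim63, the ubiquitin ligase MuRF1, at 0.39, followed by Fgfbp1 (0.33). For the interaction edgeR, DESeq2 and limma voom called none of the 22, of which 1 had an unadjusted edgeR p under 0.05, as had 665 of 15108 genes, and Hdac4 (0.36), Gadd45a (0.53) and Trim63 (0.58) had the smallest p-values. The median log2 fold change was 0.04 in sedentary and 0.23 in fatigued muscle.

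Fatigued against sedentary, 4 of the 22 denervation-responsive genes were called higher and 1 lower in control mice, and 6 higher and 1 lower in PBMT mice, where edgeR called 18.6% and 26.8% of all genes. In control mice DESeq2 called 5 higher and 1 lower, and limma voom 5 and 2, where they called 3202 of 29935 and 4945 of 15108 genes. In PBMT mice both called the same genes as edgeR. Ankrd1 averaged 9.79 ± 4.54 CPM in sedentary and 127 ± 95.6 CPM in fatigued control mice (SD, n = 6 each), with a log2 fold change of 3.70 (edgeR adjusted p = 6.35e-06) there and 3.47 (adjusted p = 4.19e-06) in PBMT mice. Trim63 averaged 247 ± 103 CPM and 747 ± 182 CPM in the same groups of control mice, with a log2 fold change of 1.595 (adjusted p = 4.97e-05) there and 2.17 (adjusted p = 6.61e-07) in PBMT mice. For both genes every fatigued mouse lay above every sedentary mouse of the same treatment. Ampd3, an AMP deaminase gene, stood at 0.52 (edgeR adjusted p = 0.0135) and 0.82 (adjusted p = 1.75e-04), and Hdac4 at 0.38 (adjusted p = 0.0248) and 0.74 (adjusted p = 4.69e-05). In PBMT mice Fgfbp1 (0.77, edgeR adjusted p = 0.00941) and Myog, which encodes the E-box binding factor myogenin (0.68, adjusted p = 0.0340), were also called higher. Hdac9, a deacetylase gene known to fall after denervation, was the gene called lower by edgeR, at -0.97 (edgeR adjusted p = 0.0437) in control and -1.74 (adjusted p = 5.92e-04) in PBMT mice. The median log2 fold change of the list was 0.22 and 0.32.

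The 11 subunits of neuronal nicotinic receptors were near the limit of detection. None of them passed the filter in sedentary muscle alone, and Chrna4 and Chrna9 passed it in the other comparisons, where edgeR called neither and limma voom called Chrna9 higher in fatigued against sedentary control mice. With PBMT in fatigued muscle their log2 fold changes were 0.21 and -0.15. Fatigued against sedentary control mice they were 0.53 and 1.14, and in PBMT mice 0.57 and 0.05. For the difference of the PBMT effects they were 0.03 and -1.09. Chrna3, Chrnb3 and Chrnb4 had no count in any mouse. Chrna9 was the most abundant, at 0.35 ± 0.23 CPM (SD, n = 24).

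Markers of the other cells in the tissue were read beside these genes. With PBMT, edgeR and DESeq2 called no marker of any list in either exercise state, and limma voom called 1, the interstitial mesenchymal marker Ly6a, lower in sedentary muscle. At an unadjusted edgeR p under 0.05 in sedentary muscle, 1 satellite cell marker was higher, and 2 interstitial mesenchymal and 1 blood or immune marker were lower. Of all genes, 1082 of 14177 were under it there, in either direction. In fatigued muscle there were 0 markers, and 230 of 14574 genes. In limma voom 5 interstitial mesenchymal and 5 blood or immune markers were lower, and 3 myofibre and 2 satellite cell markers higher, at that level in sedentary muscle, as were 2057 of 14177 genes in either direction. In fatigued muscle 1 blood or immune marker was higher in limma voom, as were 414 of 14574 genes in either direction. In edgeR all 6 interstitial mesenchymal and all 8 blood or immune markers tested had a negative log2 fold change with PBMT in sedentary muscle (medians -0.21 and -0.53), and 6 and 7 of them a positive value in fatigued muscle (medians 0.11 and 0.27). Over all genes tested the medians were -0.0019 and 0.0041, and the markers of a list are not independent. Fatigued against sedentary, edgeR called 9.1% of all genes higher in control and 14.1% in PBMT mice (18.6% and 26.8% in either direction), which the counts of markers are read against. There 0 of 10 Schwann cell markers were called by edgeR or DESeq2 in control or PBMT mice, and 1, Sox10, was called higher by limma voom in control mice. At an unadjusted p under 0.05 there were 0 in edgeR and 3, higher, in limma voom in control mice. Of all 15108 genes, 4861 in edgeR and 6470 in limma voom were under it there, in either direction. In PBMT mice there was 1, lower, in both tools, against 5674 and 6496 of 15108 genes in either direction. In edgeR 9 of the 10 had a positive log2 fold change in control mice (median 0.29) and 4 in PBMT mice (median -0.06). With PBMT 8 had a positive value in sedentary muscle (median 0.17) and 1 in fatigued muscle (median -0.16). Of 6 satellite cell markers, led by Cdh15, 1 was called higher in control mice, and 1 higher and 1 lower in PBMT mice, with summed medians of 28.0 (control) and 32.2 CPM (PBMT) in sedentary and 32.8 and 34.3 CPM in fatigued muscle. Of 10 myofibre markers, led by Myh4, 4 were called higher in control and 3 in PBMT mice, and their summed medians were 120053, 133433, 167421 and 162172 CPM in the same order of groups.

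Some markers of connective tissue were also called higher in fatigued than in sedentary muscle. Of 6 tendon markers, led by Fmod, 1 was called higher in control and 3 in PBMT mice by edgeR, against 2 and 1 by limma voom, and their summed level ran from 111 to 224 CPM (median 158) in sedentary control, 125 to 206 (median 166) in sedentary PBMT, 107 to 462 (median 328) in fatigued control and 184 to 867 CPM (median 301) in fatigued PBMT mice. The highest of these values was that of fatigued PBMT replicate 5. Of 6 interstitial mesenchymal markers, led by Gsn, 1 was called higher in control and 4 in PBMT mice by edgeR, 2 and 4 by DESeq2, and 3 and 4 by limma voom. Their summed level ran from 844 to 1142 CPM (median 1034), from 647 to 1054 (median 817), from 840 to 1553 (median 1262) and from 1049 to 1856 CPM (median 1162) in the same order of groups. The highest was again that of fatigued PBMT replicate 5, and the next in its group was 1287 CPM.

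Among 10 blood and immune cell markers, of which Cd3e and Ms4a1 stayed below the filter, 3 were called lower in control mice (S100a8, S100a9 and Csf3r), and 4 higher (the macrophage and myeloid genes Adgre1, Cd68, Csf1r and Itgam) and 2 lower (S100a8 and S100a9) in PBMT mice. In control mice limma voom called the same 3 lower and Csf1r higher, and in PBMT mice the same 4 higher and 0 lower. The median log2 fold change of the 8 tested was -0.07 in control and 0.69 in PBMT mice, while S100a8 stood at -5.45 and -4.85 and S100a9 at -5.64 and -4.22, so the sum and the median differ in direction in PBMT mice. Their summed level ran from 35.7 to 75.3 CPM (median 44.6) in sedentary control, 11.8 to 58.7 (median 37.2) in sedentary PBMT, 16.4 to 33.2 (median 23.1) in fatigued control and 14.5 to 52.2 CPM (median 20.7) in fatigued PBMT mice. The value of 52.2 CPM was that of fatigued PBMT replicate 5, and the next in its group was 28.2 CPM. The most abundant of these markers when all mice are pooled, the macrophage receptor gene Csf1r, averaged 9.06 ± 2.74, 6.16 ± 1.49, 13.1 ± 1.96 and 13.5 ± 6.58 CPM (SD, n = 6 each) in the same order of groups. Of 6 erythrocyte markers, led by Hbb-bs, 5 were tested and 0 called, with summed medians of 93.1, 94.7, 85.3 and 90.1 CPM. Of 6 keratinocyte markers 1, Krt10, was tested, and it was called lower in PBMT mice by edgeR and DESeq2 but not by limma voom, and DESeq2 also called Krt1 and Dsp lower. The summed medians were 2.58, 2.51, 1.83 and 1.71 CPM, and sedentary PBMT replicates 4 and 2 stood apart at 26.7 and 9.73 CPM, against 1.61 to 2.54 CPM in the other 4 of their group. No marker of these lists was without a count in all mice. The part of these cells in the values of Musk, Dok7, Ncam1 and Runx1 was not tested.

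Ncam1 and Runx1 have the longest exon models of the 10 genes, at 8.66 and 12.0 kb, and across genes the log2 fold change of fatigued against sedentary control mice rose with length (Spearman rho = 0.21 over 15092 genes, which are not independent). In PBMT mice rho was 0.060 with length, and with GC content it was 0.19 in control and 0.32 in PBMT mice. With PBMT in sedentary muscle rho was 0.30 with length and -0.31 with GC content, and length offsets moved Ncam1 there from 0.22 to 0.17 and Runx1 from 0.19 to 0.11, neither called. Over the 10 alternatives other than leaving out mice, Ncam1 ran there from 0.084 to 0.22 and Runx1 from 0.056 to 0.19, never called. With each mouse's trend on transcript length removed, the log2 fold changes were 1.34 for Musk, 0.59 for Dok7, 0.56 for Ncam1 and 1.80 for Runx1 in control mice, and 1.68, 0.69, 0.43 and 2.49 in PBMT mice, and all were called, as they were with the trend on GC content removed. Exons of Ncam1 overlap Gm11149 over 417 bases and those of Runx1 overlap Gm26626 over 106 bases on the opposite strand, and these partners held 2 and 1 counts in all mice together. Whether reads in these overlaps were counted by strand is not stated, so reads of the 2 strands cannot be told apart there.

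With the group means removed, levels of Chrna1, Chrnb1 and Chrne varied together between mice. Among the 36 pairs of the 9 genes, 3 pairs passed after adjustment in both Pearson's r and Spearman's rho, and these joined Chrna1, Chrnb1 and Chrne to each other. For Chrna1 and Chrnb1 r was 0.66 (permutation p = 1.60e-04, adjusted p = 0.00576) and rho 0.69 (permutation p = 3.40e-04, adjusted p = 0.0122) over 24 mice, with r of 0.53 within the sedentary and 0.84 within the fatigued project. For Chrna1 and Chrne r was 0.68 (permutation p = 7.70e-04, adjusted p = 0.0139) and rho 0.65 (permutation p = 0.00151, adjusted p = 0.0272), with 0.75 and 0.64 within the projects. For Chrnb1 and Chrne r was 0.64 (permutation p = 0.00217, adjusted p = 0.0233) and rho 0.63 (permutation p = 0.00290, adjusted p = 0.0348), with 0.50 and 0.72 within the projects. Without the 2 mice farthest from the median of the first gene, r was 0.62, 0.59 and 0.58 for these pairs. Chrne and Ache passed in Pearson's r (0.66, permutation p = 0.00259, adjusted p = 0.0233) but not in Spearman's rho (0.59, permutation p = 0.00574, adjusted p = 0.0517). Chrnd did not pass with any of these subunits, at r = 0.14 with Chrna1 (rho = 0.090; permutation p = 0.529 and 0.686, adjusted p = 0.614 and 0.7998), -0.22 with Chrnb1 (rho = -0.29; permutation p = 0.394 and 0.226, adjusted p = 0.545 and 0.428) and 0.39 with Chrne (rho = 0.33; permutation p = 0.0880 and 0.141, adjusted p = 0.244 and 0.363). The median r over the 36 pairs was 0.14.

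Outside the 10 genes, those most like Runx1 between mice, among 15108 genes and with group means removed, were Dock5 (r = 0.73), Cd151 (r = 0.71), Hexa (r = 0.71), Lncppara (r = 0.70) and Ehd3 (r = 0.70) over 24 mice, with rho between 0.50 for Ehd3 and 0.79 for Cd151. Those most like the mean of Chrna1, Chrnb1, Chrnd and Chrne were Gm2415 (r = 0.75), Foxo1 (r = 0.71), Anapc7 (r = 0.71), Igsf11 (r = 0.70) and Gm17396 (r = 0.69), with rho between 0.65 and 0.70. These are the highest of many values and are given as a description with no test.

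Promoters are shown for the 3 subunit genes that varied together and for the 2 of the 9 genes tested that differed most between fatigued and sedentary muscle. The E-box, CANNTG, is the motif read by myogenin and its relatives, and the N-box, CCGGAA, the motif read by the GABP factors in synaptic genes. Both were searched on both strands from 250 bases before to 50 bases after each RefSeq gene start on GRCm38.p6, and the letters of the motifs cannot overlap each other. Among 32851 such windows, 72.3% held an E-box, 17.6% held 3 or more, and 14.9% held an N-box. Of the 10 genes, 8 were matched, with 10 windows, of which 8 held an E-box, 5 held 3 or more and 2 held an N-box. Chrnd and Ncam1 were not matched. The windows with 3 E-boxes were those of Chrna1, Chrnb1, Chrng and Musk and the upstream start of Runx1. Those with an N-box were Chrne and the downstream start of Runx1, chr16:92697280-92697579 on the minus strand, which held no E-box. A match in letters does not show that a factor binds there.

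In the windows below, from RefSeq, capitals mark E-boxes and, in Chrne at position -76 from the gene start, the N-box. They lie at chr2:73580289-73580588 (minus strand) for Chrna1, chr11:69795888-69796187 (minus strand) for Chrnb1, chr11:70619145-70619444 (minus strand) for Chrne, chr4:58285712-58286011 (plus strand) for Musk and chr16:92826025-92826324 (minus strand) for the upstream start of Runx1.
Chrna1: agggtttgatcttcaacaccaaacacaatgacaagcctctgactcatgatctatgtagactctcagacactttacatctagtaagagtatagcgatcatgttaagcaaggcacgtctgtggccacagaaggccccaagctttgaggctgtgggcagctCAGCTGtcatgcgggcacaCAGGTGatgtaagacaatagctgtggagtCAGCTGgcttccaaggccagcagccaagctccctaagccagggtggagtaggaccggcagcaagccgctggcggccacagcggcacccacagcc
Chrnb1: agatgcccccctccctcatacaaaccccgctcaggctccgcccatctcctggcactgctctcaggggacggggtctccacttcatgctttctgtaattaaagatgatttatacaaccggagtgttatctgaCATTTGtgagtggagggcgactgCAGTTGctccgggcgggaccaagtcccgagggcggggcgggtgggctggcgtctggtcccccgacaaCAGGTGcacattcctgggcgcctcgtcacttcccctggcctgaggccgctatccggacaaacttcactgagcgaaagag
Chrne: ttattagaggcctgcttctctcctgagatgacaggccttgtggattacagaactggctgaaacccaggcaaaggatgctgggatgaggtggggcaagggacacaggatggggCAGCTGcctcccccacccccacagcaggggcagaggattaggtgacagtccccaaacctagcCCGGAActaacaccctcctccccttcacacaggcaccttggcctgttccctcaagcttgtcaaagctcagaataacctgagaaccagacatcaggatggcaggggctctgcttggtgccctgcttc
Musk: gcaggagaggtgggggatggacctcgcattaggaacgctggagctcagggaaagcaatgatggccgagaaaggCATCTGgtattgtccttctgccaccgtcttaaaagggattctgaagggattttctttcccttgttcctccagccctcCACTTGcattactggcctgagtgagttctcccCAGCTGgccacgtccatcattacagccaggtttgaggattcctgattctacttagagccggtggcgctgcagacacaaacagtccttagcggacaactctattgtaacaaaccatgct
Runx1: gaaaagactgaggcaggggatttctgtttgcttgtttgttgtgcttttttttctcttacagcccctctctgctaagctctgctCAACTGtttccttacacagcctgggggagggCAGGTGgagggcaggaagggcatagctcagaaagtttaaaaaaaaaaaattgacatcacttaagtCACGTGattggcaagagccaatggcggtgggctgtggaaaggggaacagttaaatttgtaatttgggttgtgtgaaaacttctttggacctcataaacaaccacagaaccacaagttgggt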

How the data were processed

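Groups were read from the sample labels (4 groups, 6 mice each). The authors deposited raw read counts for every gene of each mouse, from poly(A)-selected directional libraries. The submitters' processing notes name STAR 2.7.1a, featureCounts 1.6.0, HTSeq, StringTie 2.0.4, Picard 2.20.4, Trimmomatic and GRCm38. Which counter made these counts, and with which strand setting, is not given in the sources used here.

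Symbols, coordinates and exon lengths came from GENCODE M21. Comparisons of PBMT with control were fitted within each project, and the other contrasts over all 24 mice, using edgeR 4.0.16 under R 4.3.3, with filterByExpr (minimum count 10), TMM factors, robust quasi-likelihood tests (two-sided), and Benjamini-Hochberg adjustment over all genes tested, called at an adjusted p under 0.05. Standard errors and 95% intervals were derived from the quasi-likelihood F statistic. CPM used TMM factors over all 24 mice, and log2 CPM a prior count of 2. Each of the 10 genes was tested by exact permutation (924 arrangements) in both PBMT comparisons, without adjustment for the number of tests. The exact p was under 0.05 for Musk and Runx1 in fatigued and Ache in sedentary muscle. The other exact p-values ran from 0.145 to 0.905. Correlations were tested by 100000 permutations within groups. The edgeR fits were tested on simulated data.

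Alternatives were DESeq2 size factors, a minimum of 10 counts in each mouse, no filter, DESeq2 1.42.0, limma 3.58.1 voom with sample quality weights, all 24 mice in a single fit, the replicate number as a block, loess offsets (span 0.3) for transcript length or GC content, and leaving out each mouse. The 10 genes and the gene lists were chosen with earlier results of these data known. Named genes are the 10, called genes of each pathway list (at most 6 per direction, or the 3 smallest p where none was called), the most abundant marker of most lists, and the 5 genes most like Runx1 and the receptor subunits. The other markers named were called by a tool used here or stayed below the filter. Counts of 0 allow up to 3 counts. No pair of libraries agreed within sampling noise.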

Additional observations from a re-analysis of the deposited data

Results flagged for a closer look

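In the 40 groups of 6 values looked at (10 genes in 4 groups), 4 single mice lay far from the other 5 of their group, with a gap to the nearest mouse beyond the limit of Dixon's test, where chance gives about 5% of groups. Runx1 in fatigued PBMT replicate 2 was 3.73 CPM, below the 7.63 to 9.30 CPM of the others, and without this mouse the log2 fold change with PBMT was 0.94. Ache in sedentary PBMT replicate 2 was 33.9 CPM, above the 21.4 to 24.9 CPM of the others, and without this mouse the log2 fold change with PBMT was -0.37. Chrnd in sedentary control replicate 6 was 3.44 CPM, above 1.69 to 2.22 CPM in the others, and without this mouse the log2 fold change with PBMT was 0.02. Chrne in fatigued PBMT replicate 1 was 11.4 CPM, above 7.53 to 8.97 CPM in the others, and without this mouse the log2 fold change with PBMT was 0.02. The cause of these values was not tested.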

How the results depend on the processing

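Of 1036 log2 fold changes recomputed under the alternatives (9 genes without Chrng, and for the difference of the effects Musk and Runx1 only), 1006 kept their direction and their side of the threshold, 5 lost a call (Ncam1), 6 gained a call (Ache) and 19 changed sign, all among values that were not called. The cause of the changes was not tested. Leaving out single mice, the log2 fold change with PBMT in sedentary muscle ran from -0.24 to 0.022 for Chrnd and from -0.032 to 0.33 for Runx1. Without a change of sign it ran from -0.21 to -0.036 for Chrna1, 0.12 to 0.28 for Ncam1 and -0.13 to -0.038 for Dok7. Musk ran there from 0.20 to 0.40 and Chrnb1 from -0.089 to -0.018. In fatigued muscle, leaving out single mice gave -0.094 to 0.016 for Chrnb1, -0.13 to 0.087 for Chrnd, -0.10 to 0.19 for Dok7 and -0.052 to 0.11 for Ncam1 with PBMT. Chrna1 ran there from -0.19 to -0.055, without a change of sign. In fatigued against sedentary control mice, Chrne ran from -0.11 to 0.0045 and Chrnd from 0.027 to 0.30 without single mice. Ncam1 in fatigued muscle stood at -0.011 with limma voom, and Chrne in fatigued against sedentary control mice at 0.0048 with length offsets. With PBMT in sedentary muscle, the 10 alternatives other than leaving out mice gave -0.087 to -0.0081 for Dok7 and 0.084 to 0.22 for Ncam1. They gave 0.18 to 0.33 for Musk, 0.056 to 0.19 for Runx1 and -0.074 to -0.019 for Chrnb1. For Musk and Runx1 with PBMT in fatigued muscle, leaving out mice gave 0.57 to 0.82 and 0.70 to 0.94, never called. Over all genes, calls with PBMT in sedentary muscle went from 4 to 16 with no filter, 60 with DESeq2, 50 with limma voom, 12 with length offsets, 16 with GC offsets, 1 with all 24 mice in a single fit, and 2 to 20 without single mice. In fatigued muscle they went from 0 to 2 with DESeq2. The difference of the effects gave 1 call, and 1 to 3 without single mice, and fatigued against sedentary control mice gave 2809, and 4945 with limma voom. With the replicate block, calls were 11 in sedentary and 1 in fatigued muscle, and with the block and length offsets 14 and 1. No source states a pairing of same-numbered mice, and a shared treadmill session was not tested: same-numbered deviations correlated above 0.1 in 0 of 6 pairs in the sedentary and 4 of 6 in the fatigued project, and 1 and 3 mice correlated best with their own number. Besides Ache in PBMT mice, the block changed no call among the 9 genes. Chrng and most neuronal subunits were below the filter, and Chrng was fitted only by DESeq2 and by edgeR with no filter, and called by neither.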
